A study of Mus musculus with 28 samples.

Results

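MicroRNAs are short RNAs that base-pair with messenger RNAs through a seed near their 5′ end and lower the output of the matched genes. They are cut from longer primary transcripts, first in the nucleus by Drosha with Dgcr8 and then in the cytoplasm by Dicer1, and are loaded into Argonaute proteins. The start of a primary transcript can lie far from the hairpin it carries, so acetylation of lysine 27 of histone H3 (H3K27ac), a mark of active promoters and enhancers, can sit at the hairpin or many kilobases before it. In the testis, microRNAs of the miR-34 and miR-449 family are known from meiotic and post-meiotic germ cells, and miR-202 from spermatogonia and Sertoli cells.

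The regions described here are stretches of H3K27ac listed in the deposited peak tables under a single microRNA gene (a symbol starting with Mir and a digit, or Mirlet7) and placed by those tables in the promoter or upstream class. Peaks of the 12 H3K27ac tables that met this rule, 1030 in all, were reduced to their highest summit and merged where they overlapped, which gave 257 regions under 138 microRNA symbols, out of 129187 H3K27ac regions of the whole series and 35012 regions of the promoter or upstream class. A further 431 promoter or upstream regions were listed under several genes including a microRNA and are not members. Of the 257, 148 were of the promoter class only, 104 of the upstream class only and 5 of both. The summit of the promoter-class regions lay at a median of −546 bp from the listed start of the microRNA, and that of the upstream-class regions at −10451 bp, with the farthest at −21288 bp. In 184 regions every overlapping peak was listed under a single microRNA symbol, and these are called stand-alone below. The other 73 also held peaks listed under or with another gene, which can be a further microRNA. A value there may thus belong to a host or neighbouring gene.

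Chromatin came from testicular germ cells of C57BL/6 mice and was profiled by ChIPmentation, in which a transposase adds the sequencing adapters during immunoprecipitation. Wild type (WT) and Scml2-KO (KO) Thy1+ spermatogonia and c-Kit+ spermatogonia, taken at P7 (postnatal day 7), gave 4 groups, and adult Scml2-KO pachytene spermatocytes (PS) and round spermatids (RS) gave 2 more, with 2 replicates in each of the 6 groups; 16 input libraries, in 8 groups of 2, had no immunoprecipitation. Thy1+ cells are enriched for undifferentiated and c-Kit+ cells for differentiating spermatogonia, and Scml2 encodes a germline Polycomb protein. H3K27ac in WT PS and WT RS was not analysed here, so every adult value is from KO cells, and age, isolation and stage cannot be told apart between spermatogonia and adult cells; the labels give sorting or sedimentation as the isolation without saying which was used for each sample. The level used throughout is the deposited fold enrichment of a peak's summit, that is (height + 1) divided by (background + 1) with a constant background within a library. Read depth is unknown, a missing peak means only that none was called, and nothing in the labels says whether replicates came from separate animals, so p-values measure the spread between these samples. The peak tables hold no measure of Scml2 RNA with which to check the genotype labels.

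The mature sequences below are shown because the results turn on these microRNAs; they are from RefSeq (GRCm38.p6), which held a hairpin at the listed position for 104 of the 138 symbols. Capitals mark the seed, bases 2 to 8. miR-34a and miR-449c share the seed GGCAGUG:
miR-34a-5p: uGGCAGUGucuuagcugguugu
miR-449c-5p: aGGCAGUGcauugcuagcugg
The let-7 members share the seed GAGGUAG, and the seed of miR-202-3p differs from it by a single substitution (G8U, let-7i base first, counted from the 5′ end):
let-7i-5p: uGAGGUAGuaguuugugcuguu
let-7c-5p: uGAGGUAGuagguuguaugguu
miR-202-3p: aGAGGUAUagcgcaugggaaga
miR-202-5p: uUCCUAUGcauauacuucuuu
The hairpins on chromosomes 11 and 16 named Mir193 and Mir193b give products with the seed ACUGGCC, and those of Mir199a-1 and Mir199b give products with the seed CAGUAGU:
miR-193a-3p: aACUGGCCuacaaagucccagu
miR-193b-3p: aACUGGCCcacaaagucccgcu
miR-199a-3p: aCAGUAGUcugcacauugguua
miR-199b-3p: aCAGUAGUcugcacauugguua
Members without a matched sequence, Mir30d among them, were not compared by seed. The remaining microRNAs shown shared no seed with another matched member:
miR-30a-5p: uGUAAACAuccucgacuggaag
miR-148a-3p: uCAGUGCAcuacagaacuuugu
miR-203-3p: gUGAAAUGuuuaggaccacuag
miR-760-3p: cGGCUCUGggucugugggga
miR-184-3p: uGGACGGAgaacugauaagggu
miR-9-5p: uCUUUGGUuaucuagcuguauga
miR-142a-3p: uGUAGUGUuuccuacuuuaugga
miR-692: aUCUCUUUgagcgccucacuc

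The libraries held between 17877 and 36362 H3K27ac peaks in spermatogonia and between 63322 and 73316 in adult cells. The number of microRNA regions with a peak was between 46 and 97 in the 8 spermatogonial libraries, 149 and 146 in PS and 144 and 108 in RS. Within each spermatogonial group the replicate with more peaks also held more microRNA regions, as in Thy1+ KO with 97 against 56. Across groups the order differed, since RS replicate 2 held 108 microRNA regions among 63322 peaks and PS replicate 2 held 146 among 64056. Where both replicates of a group had a peak, the higher value was a median of 1.16 (RS) to 1.53 (Thy1+ KO) times the lower. Both replicates held a peak in 54.5% to 67.9% of the regions that had one in either. The inputs had 359 to 1192 peaks, and 1 microRNA region, at Mir466d, overlapped any of them. Its fold enrichment was 7.57 to 14.7 across the 12 H3K27ac libraries, and it had a peak in all 16 inputs, the highest at 13.4.

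**Figure D1:**
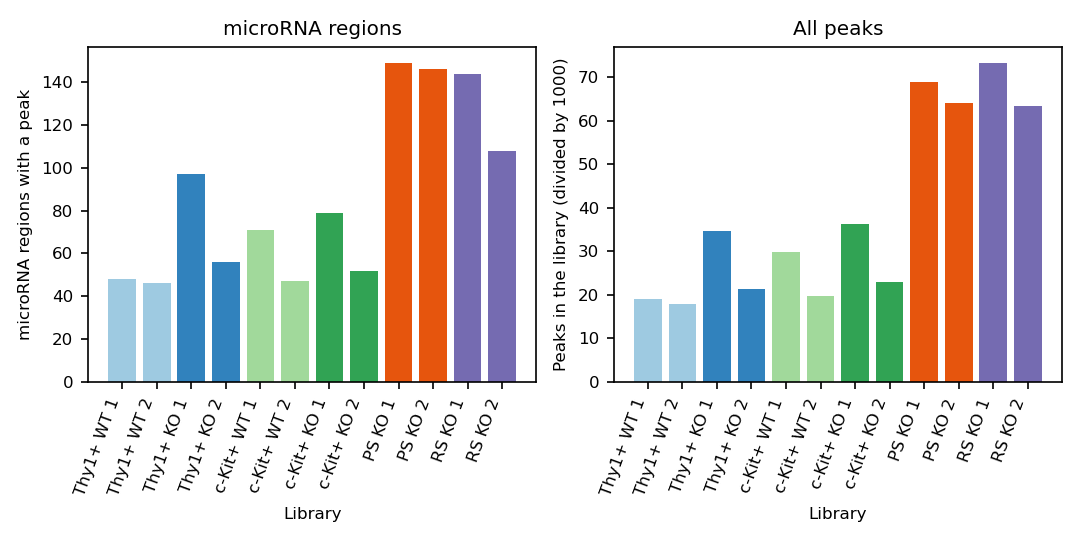
Left, number of the 257 microRNA regions with a peak in each H3K27ac library; right, number of all H3K27ac peaks in the same library, divided by 1000; colours mark the 6 groups. The 4 adult libraries, with 108 to 149 microRNA regions, stand above the 8 spermatogonial libraries, with 46 to 97, and hold more peaks in all.

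A peak was present in all 12 libraries at 30 of the 257 regions (11.7%, against 7.15% of all regions), and 15 of the 30 were stand-alone. These were broad, with a median length of 2752.5 bp, and their highest fold enrichment had a median of 21.2. At the other end, 100 regions (38.9%, against 52.4% of all regions) had a peak in 1 library, with a median length of 185 bp and a median highest fold enrichment of 3.91; 82 of these were seen in an adult library. Peaks in adult libraries only were found at 133 regions (51.8%, against 62.3% of all), in spermatogonial libraries only at 23 (8.95%, against 16.3%), and in all 4 adult and no spermatogonial library at 12 (4.67%, against 4.94%). Mir101c, whose peaks the tables place in the intergenic class, had no region under the rule. The shares are given beside those of all regions as a description, with no test. Here and below, all regions means every class of location, while members are promoter or upstream by rule. Shares over the 35012 regions of the promoter or upstream class were not computed, so a difference may reflect the class. Members were merged from their own listed peaks only, and all regions from every peak. Several members can thus lie in 1 of the latter.

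Mir202 had the most regions of any symbol, 13, spread over 7:139956336-139972048 (mm10, minus strand gene). The lower end of the listed gene is 139957690, and distances are measured from its upper end, where a minus strand gene starts. Its 3 main stand-alone regions, with summits at −793, −3241 and −6431 bp, had a peak in all c-Kit+ and PS libraries and none in RS. The region at −3241 bp (7:139960054-139962684) had a fold enrichment of 3.67 and 3.62 in Thy1+ WT, 4.56 and 5.12 in Thy1+ KO, 10.8 and 8.06 in c-Kit+ WT, 10.4 and 5.83 in c-Kit+ KO and 13.0 and 10.7 in PS. All 4 c-Kit+ values lay above all 4 Thy1+ values, and neither RS library had a peak. The 2 Thy1+ WT values were the lowest of any peak in their libraries, so a lower level there would not have been called. The Thy1+ mean and SD below include these values at the calling floor. On the log2 scale, after centring each library on its median, it was 1.30 higher in c-Kit+ than in Thy1+ cells (SE 0.179, limma adjusted p = 0.000879; means 8.78 ± 2.31 and 4.24 ± 0.73, SD, n = 4 each). Without centring the difference was 1.02 and did not pass (adjusted p = 0.224). Over the alternatives in which this region was tested the adjusted p ranged from 5.48e-05 to that value. With stricter peaks (−log10 q of at least 5) it was not among the tested regions, and 0 microRNA regions passed.

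The region next to the hairpin, at −793 bp (7:139956336-139959467, holding the hairpin), was called in 1 of 2 Thy1+ WT libraries at 3.62 and 1 of 2 Thy1+ KO libraries at 6.08, then in c-Kit+ WT at 7.41 and 5.58, c-Kit+ KO at 5.20 and 5.25 and PS at 9.53 and 9.06. Here the Thy1+ KO value lay within the c-Kit+ range, and the Thy1+ WT value was again the lowest of any peak in its library. The region at −6431 bp had no peak in any Thy1+ library and 6.27, 4.96, 8.51 and 4.08 in the c-Kit+ libraries (WT first), 6.10 and 7.46 in PS and none in RS. It was 1 of 2 microRNA regions called in all 4 c-Kit+ and no Thy1+ library, of 124 with a peak in spermatogonia (0.43% of all regions did this). Of the Mir202 regions, that at −3241 bp alone had the peaks needed for the genotype test; its KO minus WT difference was −0.20 (SE 0.179, limma adjusted p = 0.973).

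Farther upstream the order was different. The 3 stretches at −12678, −13241 and −14186 bp carried 14.9 and 15.1 in RS, 3.73 to 10.7 in PS and, in spermatogonia, at most 4.56 in Thy1+ KO replicate 1. In the RS libraries those stretches were covered by a single peak that is listed under 6430531B16Rik, the neighbouring gene, so the value is shared with that gene and the 3 are 1 measurement. As 1 tested stretch it was 1.12 higher in RS than in PS (SE 0.295, limma adjusted p = 0.0278; means 8.27 ± 3.40 in PS and 15.0 ± 0.20 in RS, n = 2 each). Leaving out PS replicate 2 or RS replicate 2 ended the call (adjusted p = 0.198 and 0.0646). The remaining Mir202 regions had a peak in 1 or 2 libraries at no more than 4.56.

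**Figure D2:**
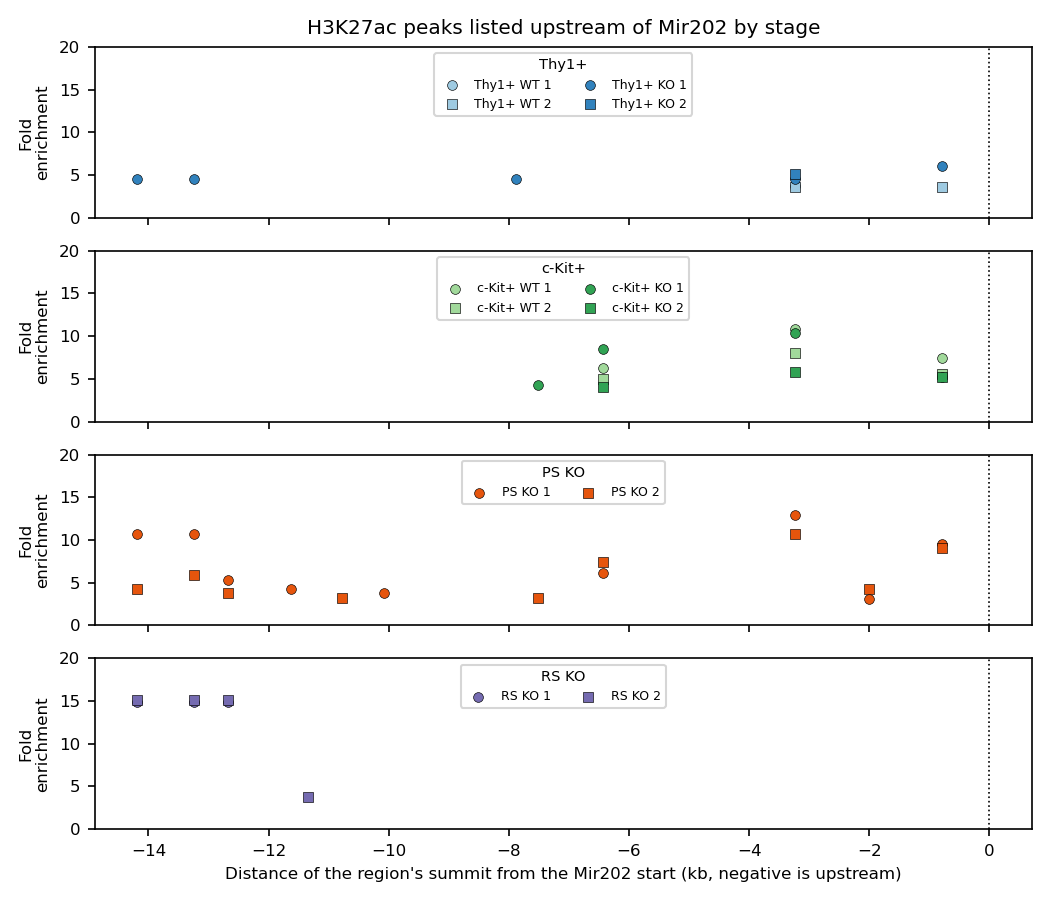
Fold enrichment (vertical axis) of each Mir202 region against the distance of its summit from the Mir202 start in kb (horizontal axis), 1 panel per stage and 1 point per library with a peak. Near the gene c-Kit+ and PS have points at each of the 3 main regions and RS has none; at the far end RS stands at 14.9 and 15.1, a peak shared with 6430531B16Rik.

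Promoter peaks of genes that mark somatic testis cells were present in the same libraries. Those of Leydig cells, and Amh among those of Sertoli cells, moved with Mir202 from Thy1+ to c-Kit+ cells. Those of peritubular cells went the other way in their range, and the sum over all somatic markers did not rise. Of 12 such markers, Cyp11a1, a steroid-making enzyme of Leydig cells, had no peak in the Thy1+ or RS libraries, a peak in 3 of 4 c-Kit+ libraries (6.84, 6.20 and 6.15) and 4.19 and 4.80 in PS. Star, which moves cholesterol into mitochondria for steroid synthesis, had a peak in 1 of 4 Thy1+ libraries at 4.05, in all 4 c-Kit+ libraries at 5.67 to 6.27, in PS at 10.7 and 11.2 and in RS at 4.30 and 5.41. The summed fold enrichment of the 3 Leydig markers was 0 to 4.05 in Thy1+, 5.83 to 13.1 in c-Kit+, 14.9 to 16.0 in PS and 4.30 to 5.41 in RS cells, with Hsd3b1 at no peak in any library. That of the 3 Sertoli markers Sox9, Amh and Wt1 was 0 to 14.2 in Thy1+, 0 to 15.4 in c-Kit+, 28.2 to 36.8 in PS and 8.66 to 11.7 in RS cells. Of these, Amh had no peak in Thy1+ cells and 5.70 and 3.78 in replicate 1 of c-Kit+ WT and KO. It had 10.7 and 19.7 in PS and 7.82 and 5.41 in RS. Sox9 and Wt1 did not rise from Thy1+ to c-Kit+ cells. That of the peritubular markers Acta2 and Myh11 was 4.72 to 17.7 in Thy1+, 0 to 10.4 in c-Kit+ and 0 to 4.80 in PS cells, with no peak in RS. Over all 12 markers the sum was 17.3 to 49.6 in Thy1+, 12.2 to 41.6 in c-Kit+, 60.6 to 74.1 in PS and 35.2 to 45.8 in RS cells. From c-Kit+ KO to PS, Amh passed higher (log2 change 0.76, limma adjusted p = 0.0332), and Star and Cdh5 did not pass. From PS to RS, Amh, Wt1 and Star passed lower (−0.90, −1.09 and −0.67, limma adjusted p = 0.0429, 0.00935 and 0.0343). Pecam1 and Cdh5 did not pass there. Of all regions, 6.83% passed higher in PS in the former comparison and 7.79% lower in RS in the latter. The part of these cells in the Mir202 values, or in other regions high in PS and low in RS, was not tested. Fewer cells of a type cannot be told apart from less of the mark per cell.

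The miR-34 and miR-449 family, known for its joint role in spermatogenesis and ciliated cells, had a region for 2 of its 6 listed genes under the rule. Mir449c had 1 region, 5311 bp long (13:113030769-113036079), which held the hairpin and the start of Cdc20b, the coding gene in whose intron the miR-449 cluster lies. It had no peak in any of the 8 spermatogonial libraries, 21.0 and 28.8 in PS and 16.4 and 16.2 in RS. PS and RS did not overlap, but the RS minus PS difference on the centred log2 scale was −0.40 (SE 0.218, limma adjusted p = 0.234) and did not pass. In both RS libraries the peak was listed under Mir449a, Mir449b and Mir449c together, so the 3 share the value.

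Mir34a had 6 stand-alone regions, the main one with its summit at −19482 bp (4:150047843-150050068). Its fold enrichment was 4.22 in the only Thy1+ WT library with a peak, 6.58 and 3.84 in Thy1+ KO, 5.70 and 4.34 in c-Kit+ WT, 6.62 and 4.08 in c-Kit+ KO, 10.7 and 14.4 in PS and 5.08 and 4.87 in RS. Both PS values were above all others, and RS lay within the range of the spermatogonia. From PS to RS it fell (log2 change −1.12, SE 0.213, limma adjusted p = 0.0104; means 12.5 ± 2.63 and 4.98 ± 0.15, n = 2 each). Against c-Kit+ KO, PS differed by 0.18 after centring (SE 0.212, adjusted p = 0.563), a comparison in which the median tested region had itself risen. Each of the other 5 Mir34a regions had a peak in 1 or 2 libraries, at 3.73 to 6.08.

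The promoter window of Cdc20b is printed because it lies inside the Mir449c region, and that of Mir22hg, the primary transcript of miR-22, because its region had the highest mean among those called in all 12 libraries. 1700122H20Rik starts inside the Mir692-1 region, which rose most in RS. Each runs from 250 bases before to 50 after the start and is from RefSeq (GRCm38.p6); the windows are 13:113035129-113035428, 11:75461289-75461588 and 17:6895690-6895989, all on the plus strand. Capitals mark matches, on either strand, to CAACTG or CAACGG (bound by MYB factors), GTTGCC (a half-site of RFX factors), TGACGTCA (the cyclic AMP response element) and GGGCGG (an SP box); no match overlapped another.
Cdc20b: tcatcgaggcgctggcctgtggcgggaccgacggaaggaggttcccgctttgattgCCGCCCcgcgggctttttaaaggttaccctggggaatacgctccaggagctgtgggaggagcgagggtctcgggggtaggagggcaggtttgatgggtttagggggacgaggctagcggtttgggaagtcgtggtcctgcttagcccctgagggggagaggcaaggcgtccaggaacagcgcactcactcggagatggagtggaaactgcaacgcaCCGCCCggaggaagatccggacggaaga
Mir22hg: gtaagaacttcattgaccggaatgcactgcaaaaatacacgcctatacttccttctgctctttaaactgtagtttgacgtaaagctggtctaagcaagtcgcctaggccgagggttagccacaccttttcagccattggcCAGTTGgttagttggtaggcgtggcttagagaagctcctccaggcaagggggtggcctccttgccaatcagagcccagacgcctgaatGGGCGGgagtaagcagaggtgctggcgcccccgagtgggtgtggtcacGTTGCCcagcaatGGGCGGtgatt
1700122H20Rik: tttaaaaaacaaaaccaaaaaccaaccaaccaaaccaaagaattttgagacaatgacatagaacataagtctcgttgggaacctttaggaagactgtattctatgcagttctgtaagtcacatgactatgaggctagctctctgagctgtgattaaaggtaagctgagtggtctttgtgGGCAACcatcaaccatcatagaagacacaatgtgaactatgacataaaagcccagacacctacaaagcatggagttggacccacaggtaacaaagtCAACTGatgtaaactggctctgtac
Cdc20b held 2 matches, both to the SP box, which 35.7% of the 32851 promoter windows of 300 bases held. Mir22hg held 4, of which 2 were SP boxes, 1 was the first MYB motif and 1 the RFX half-site, and 1700122H20Rik held 1 of each of the last 2. The first MYB motif was present in 13.7%, the other MYB motif in 5.12%, the RFX half-site in 12.5% and the cyclic AMP response element in 1.79% of all windows. The GC content was 63.0% at Cdc20b, 54.7% at Mir22hg and 40.3% at 1700122H20Rik, against a median of 52.7%. A match describes letters only.

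Among regions with a peak in every library, let-7i, a let-7 member, stood second by mean. Its region (10:122984099-122987292, 3194 bp, holding the hairpin) had 20.4 and 15.1 in Thy1+ WT, 27.3 and 18.5 in Thy1+ KO, 19.4 and 16.7 in c-Kit+ WT, 18.0 and 9.91 in c-Kit+ KO, 25.9 and 30.9 in PS and 25.4 and 22.2 in RS. It passed in none of the 4 comparisons. The other let-7 regions were low: of 12 let-7 genes 4 had a region, and Mirlet7c-2, Mirlet7b and Mirlet7a-1 did not exceed 7.67. Those of Mirlet7b and Mirlet7c-2 next to the hairpins are part of 1 tested stretch and share its value. After centring that stretch was lower in PS than in c-Kit+ KO (log2 change −0.60, SE 0.209, limma adjusted p = 0.0429), while its mean as deposited was higher in PS, 6.59 ± 1.23 against 4.70 ± 0.05 (SD, n = 2 each), so the call rests on the centring described below.

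Mir22hg reached 21.0 and 13.3 in Thy1+ WT, 32.4 and 16.6 in Thy1+ KO, 21.1 and 8.68 in c-Kit+ WT, 24.6 and 8.75 in c-Kit+ KO, 32.4 and 36.8 in PS and 28.9 and 28.1 in RS. Replicate 2 was lower than replicate 1 in each spermatogonial group here, and the peak is also listed under Wdr81, Tlcd2 and Serpinf2. Mir193, at −7717 bp, was stand-alone and held the start of the noncoding gene Gm11205. It had 16.8 and 15.1 in Thy1+ WT, 31.9 and 16.0 in Thy1+ KO, 14.3 and 11.8 in c-Kit+ WT, 16.1 and 9.33 in c-Kit+ KO, 25.9 and 26.7 in PS and 22.7 and 19.5 in RS. Mir339, whose peak is shared with 3110082I17Rik, went from 8.68 to 23.8 in spermatogonia to 30.1 and 37.3 in PS, the highest value of any microRNA region, and 24.6 and 24.9 in RS.

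Mir30a had 3 regions, of which 2 stand-alone ones with different courses are described here. The remaining region had a peak in both RS and neither PS library. The region at −15626 bp (1:23255425-23258026) was called everywhere, with 7.67 to 24.3 in spermatogonia, 27.5 and 28.3 in PS and 26.6 and 24.9 in RS. The region at −3942 bp (1:23267629-23269027) had no peak in spermatogonia, 6.86 and 4.80 in PS and 8.21 and 10.3 in RS. This near region was 0.87 higher in RS than in PS in log2 units (SE 0.271, limma adjusted p = 0.0492; means 5.83 ± 1.46 and 9.25 ± 1.46, n = 2 each). The far region did not pass that test (0.08, SE 0.194, adjusted p = 0.813). The near call sits at the threshold and was lost under 5 of the alternatives (adjusted p up to 0.348).

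Mir760 (3:122290113-122297087, 6975 bp, the longest region) had the largest centred rise from c-Kit+ KO to PS among the microRNA regions tested. Regions without a peak in c-Kit+ KO, such as Mir449c, could not be tested. It had 8.99 and 8.75 in c-Kit+ KO and 33.2 and 32.0 in PS, then 28.6 and 22.2 in RS. The centred log2 change was 0.80 (SE 0.199, limma adjusted p = 0.00829), and the call was lost without c-Kit+ KO replicate 2 (1.02, adjusted p = 0.0714) and with quantile normalization (0.83, adjusted p = 0.0656), with a change no smaller. Mir148a, stand-alone and holding the hairpin, went from 12.8 and 9.33 in c-Kit+ KO to 18.3 and 22.9 in PS and 10.6 and 11.9 in RS. Its RS minus PS change of −0.68 (SE 0.224) did not pass (limma adjusted p = 0.0618).

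**Figure D3:**
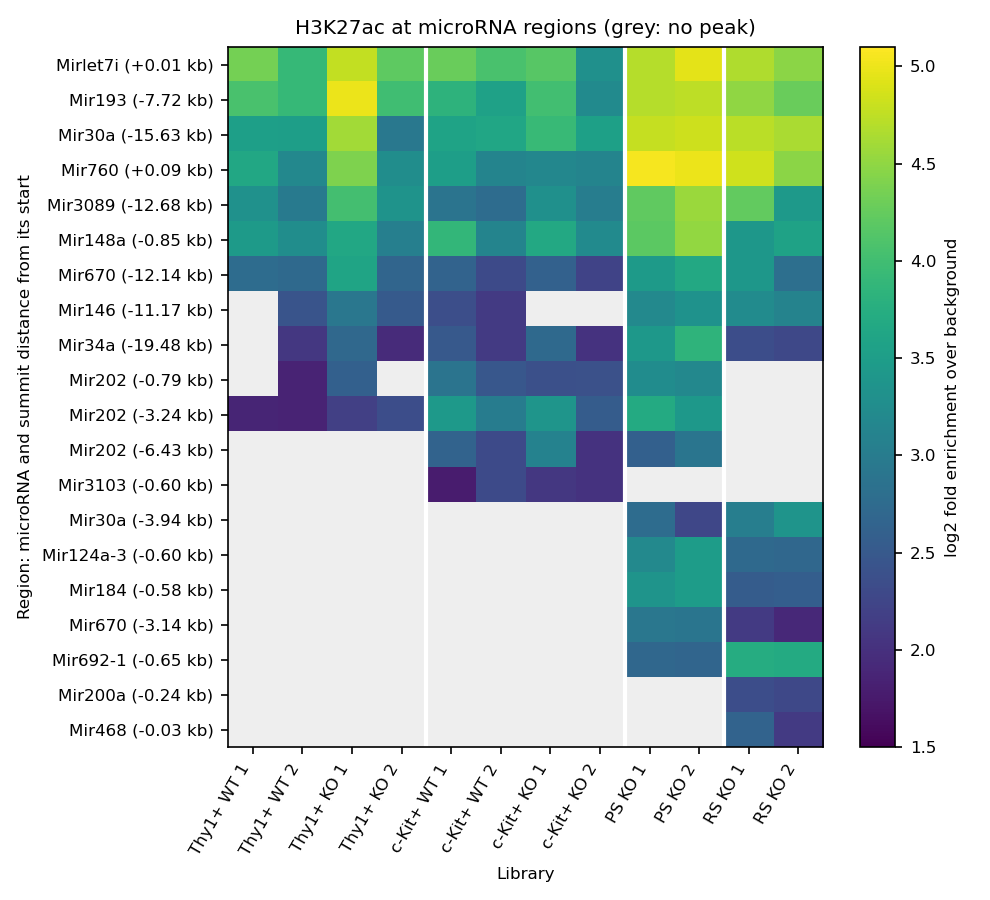
Log2 fold enrichment (colour) of 20 stand-alone microRNA regions in the 12 H3K27ac libraries (columns), with each region's summit distance from the microRNA start in kb; grey means that no peak was called. From top to bottom come regions called in all or most libraries, the Mir202 regions without a peak in RS, Mir3103 seen in c-Kit+ cells, and regions seen in adult cells only.

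**Figure D4:**
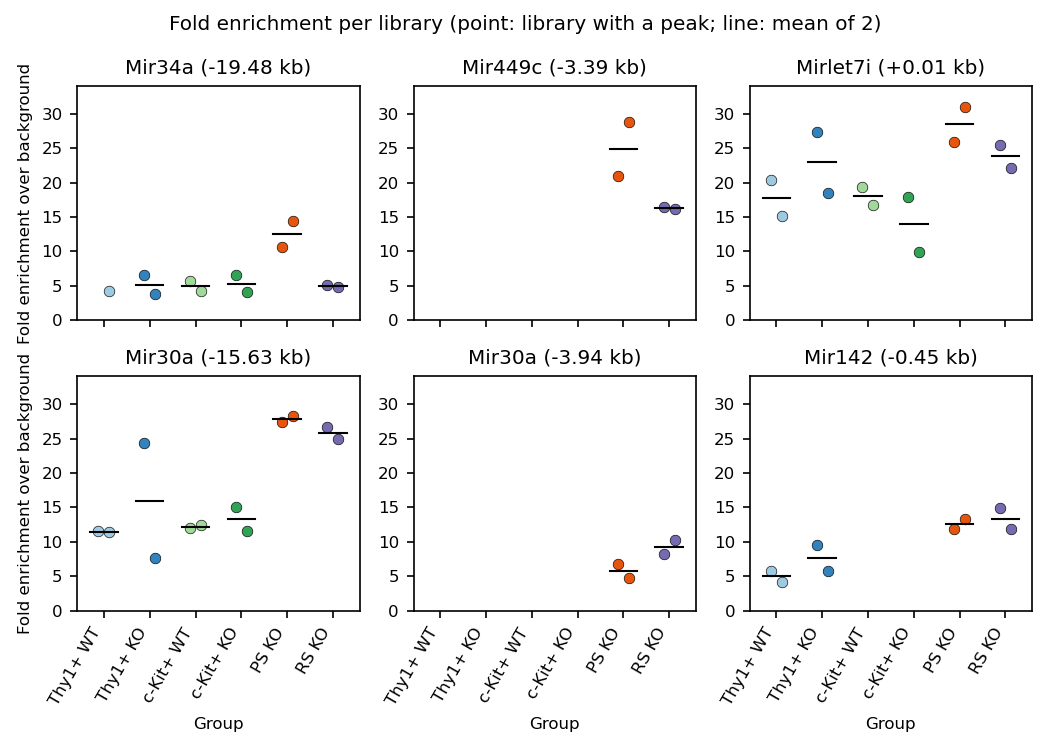
Fold enrichment (vertical axis) in each library, by group, for 6 regions; points are libraries with a peak and lines are means of 2. Mir34a peaks in PS at 10.7 and 14.4, Mir449c and the near Mir30a region have points in adult cells only, and Mir142 has none in c-Kit+ cells.

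Between KO and WT spermatogonia no change was detectable at a microRNA region. Of the 257 regions, 43 had a peak in all 8 libraries and were tested (as 40 separate stretches), and 0 passed, as did 0 of all 9585 regions tested (0.0% called, limma adjusted p under 0.05). At an unadjusted p under 0.05 there were 3 microRNA regions and 502 regions in all. The 3 were Mir99b, −0.49 in KO (SE 0.163, limma adjusted p = 0.80), Mir21, 0.40 (SE 0.151, adjusted p = 0.863), and Mir1901, −0.33 (SE 0.153, adjusted p = 0.915), none of them stand-alone. No microRNA region had a peak in every library of 1 genotype and in none of the other, against 0.055% of all regions in KO and 0.00344% in WT. The interaction of genotype with stage gave 0 called of 43 and 0 of all 9585 (limma adjusted p under 0.05). At an unadjusted p under 0.05 there were 0 microRNA regions and 453 regions in all.

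Between c-Kit+ and Thy1+ spermatogonia 1 of the 43 tested regions passed, the Mir202 region at −3241 bp, beside 1.09% of all regions (0.803% higher and 0.282% lower in c-Kit+). At an unadjusted p under 0.05 there were 10 of the 43 and 1358 of all 9585. Mir3103 (7:128288591-128289426, holding the start of the coding gene Rusf1) had a peak in all 4 c-Kit+ libraries, at 3.42, 4.96, 4.26 and 4.08, and in no other library of the 12. Only Mir142, a microRNA of blood cells, was called in all 4 Thy1+ libraries (5.76, 4.22, 9.62 and 5.76) and no c-Kit+ library, which 0.141% of all regions were. It also had 11.8 and 13.3 in PS and 14.9 and 11.9 in RS, and its peaks are listed with Bzrap1. Of the blood markers, Ptprc had a peak in both Thy1+ KO libraries (5.06 and 4.48) and in RS (9.00 and 7.03), and Csf1r in PS replicate 1 (3.05) and RS (9.00 and 4.33); their part in the Mir142 values was not tested.

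Mir199b, whose region holds the hairpin, ran from 11.0 and 9.65 in Thy1+ WT and 18.2 and 8.95 in Thy1+ KO to 6.84 and 4.34 in c-Kit+ WT and 4.73 in 1 of 2 c-Kit+ KO libraries. It had no peak in PS and 5.87 and 6.49 in RS, and it was not tested since a library lacked a peak. All 4 Thy1+ values lay above the c-Kit+ values. Mir199a-1, whose product has the same seed, had 7.84 to 15.2 in Thy1+, 5.83 to 10.4 in c-Kit+, 9.53 and 6.93 in PS and 6.65 and 7.57 in RS. Both lie within dynamin genes (Dnm1 and Dnm2), and their peaks are listed under those genes too.

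Between c-Kit+ KO and PS KO the calls depended on how libraries were scaled. The median tested region was 1.08 higher on the log2 scale in PS as deposited, so the changes given are relative to that median. Relative to it, 20 of 56 tested microRNA regions (51 stretches) passed, 3 higher and 17 lower in PS, where 6.83% of all 12501 regions passed higher and 25.1% lower (31.9% in all). Mirlet7b and Mirlet7c-2 share a single stretch among the lower ones, as do the Mir3109 regions, so fewer stretches than regions passed. Without centring, 34 passed and all 34 were higher in PS, and with quantile normalization 1 passed, lower. Without c-Kit+ KO replicate 2 none passed (0 of all regions too).

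The 3 higher ones were Mir760, given above, Mir99b at 0.73 (SE 0.200, adjusted p = 0.0136; 10.4 and 6.41 in c-Kit+ KO, 29.0 and 28.3 in PS) and Mir3089 at −2542 bp at 0.57 (SE 0.189, limma adjusted p = 0.0353; 7.57 and 5.83 against 21.4 and 20.3). Mir99b shares its peak with Mir125a, Mirlet7e and a noncoding host transcript. Of the 17 regions lower after centring, 13 were higher in PS before it and 4 lower. Among the 13, the mean as deposited went from 8.76 ± 1.66 to 12.1 ± 2.52 at Mir203 and from 6.99 ± 0.82 to 9.41 ± 1.25 at Mir193b (SD, n = 2 each), so these calls rest on the centring. Mir684-2, among the 4, had 5.20 and 5.25 in c-Kit+ KO and 4.96 and 4.27 in PS (centred log2 change −1.26, SE 0.208, limma adjusted p = 0.000815). Among the 10 of largest change, Mir199a-1, Mir713, Mir26a-1, Mir193 at −307 bp, Mir202 at −6431 bp and Mir143hg had negative centred changes of −1.02 to −0.84 that turned positive without centring. Mir130a, Mir1895 and Mir466d, the region also called in the inputs, had centred changes of −1.23, −1.23 and −1.21, which without centring were −0.16, −0.16 and −0.13 and did not pass.

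A peak in both PS and neither c-Kit+ KO library was seen at 53 of the 191 microRNA regions with a peak in these 4 libraries (27.7%, against 21.0% of all regions), and the reverse at 1, Mir3103 (0.52%, against 0.817%). The 53 count each short region, also where several lie in 1 merged stretch. The share of all regions counts each merged stretch once, so these shares are not of like units. Keeping the 22949 strongest peaks of each library, the regions in 1 side only were 32 in place of 54. Stand-alone ones among the 53 included Mir184 (9:89802457-89803610), a microRNA of neural and epithelial tissue, with 10.3 and 11.2 in PS and 5.87 and 5.95 in RS. Mir124a-3, of a neuronal microRNA family, had 9.15 and 11.2 in PS and 6.65 and 6.49 in RS at −599 bp. Mir9-3, also neuronal, had 11.1 and 8.00 in PS and 13.3 and 10.8 in RS, with peaks also listed under AI854517. These 3 had no peak in any spermatogonial library. For Mir5117, Mir1931 and Mir3082 at −24 bp, with 24.8 to 31.6 in PS, the peak is listed with a neighbouring coding or host gene, and the short region has a value only where that gene's peak reached it. The merged stretches that hold these 3 regions had peaks in both c-Kit+ KO libraries, with means of 11.3, 16.3 and 13.9. So did those of a Mir3100 and a Mir345 region among the 53 (means 7.63 and 6.57).

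Between PS and RS, 20 of 84 tested microRNA regions (71 stretches) passed, 10 higher and 10 lower in RS, where 12.4% of all 21329 regions passed higher and 7.79% lower (20.2% in all). The far Mir202 regions share a single stretch, as do the Mir377 regions, so fewer stretches than regions passed. The shares of all regions count each stretch once. With quantile normalization the split was 6 higher of 17, and without centring 7 higher of 28. Leaving out PS replicate 2 ended all of these calls, and all calls over the whole table. Of the 20, 6 were stand-alone.

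The largest rise was at Mir692-1 (17:6894354-6896689), which had no peak in spermatogonia, 6.48 and 6.40 in PS and 13.3 and 13.0 in RS. On the centred log2 scale it rose by 1.22 (SE 0.198, limma adjusted p = 0.0082; means 6.44 ± 0.06 and 13.1 ± 0.22, n = 2 each). Mir804, whose peak is shared with Hnrnph1, a splicing factor gene, went from 6.10 and 3.73 to 8.21 and 8.11 (0.97, SE 0.267, adjusted p = 0.0325). Mir143hg passed in RS at 0.83 (SE 0.198, adjusted p = 0.0199), on a stretch that is part of its region; without RS replicate 1 its change was 0.05. Mir150, on the list of microRNAs of somatic tissues, rose by 0.85 (SE 0.193, limma adjusted p = 0.0169). The means of its tested stretch were 3.58 ± 0.21 in PS and 5.64 ± 0.32 in RS (n = 2 each). Mir5103 at 0.74 and Mir3971 at 0.72 also rose, and these and Mir150 each share a peak with another gene.

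Among the falls, Mir377 followed Mir34a. Its 3 short regions are 1 tested stretch that is also listed under Mir154 and Mir496, members of the imprinted cluster of chromosome 12. That stretch had means of 20.3 ± 2.24 in PS and 8.48 ± 1.28 in RS (n = 2 each; log2 change −1.07, SE 0.192, limma adjusted p = 0.00946). No spermatogonial library had a peak there. Mir203 (12:112129668-112131457), a microRNA of epithelial differentiation that shares its peak with Kif26a, had 6.29 to 12.2 in spermatogonia, 10.3 and 13.9 in PS and 5.87 and 5.95 in RS (log2 change −0.82, SE 0.218, adjusted p = 0.028). Mir184 fell by 0.67 (SE 0.202, limma adjusted p = 0.0445) and Mir670 at −3144 bp by 0.71 (SE 0.191, adjusted p = 0.0301). Mir193b fell by 0.70, Mir3100 by 0.84 and Mir684-1 by 0.78, all with a peak listed also under other genes.

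Of the 234 microRNA regions with a peak in PS or RS, 15 had a peak in both RS and neither PS library (6.41%, against 7.69% of all regions) and 24 the reverse (10.3%, against 8.96%). As above, the counts are of short regions and the shares of all regions are of merged stretches. Mir3082 at −24 bp and a Mir377 region are among the 24. The stretches that hold them had peaks in both RS libraries (means 20.9 and 8.48). The RS set included Mir200a at 5.08 and 4.87, of the miR-200 family of epithelial cells, and Mir468 at 6.26 and 4.33, both stand-alone. The PS set included Mir200b, of the same family and cluster, at 3.05 and 3.73, so the 2 family members stood in opposite sets with weak peaks. It also included the Mir202 regions at −793, −3241 and −6431 bp and Mir1960, with 8.39 and 10.7, whose peak is also listed under Hadhb. Leaving out 1 library raised the number in 1 side only from 39 to between 63 and 71.

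**Figure D5:**
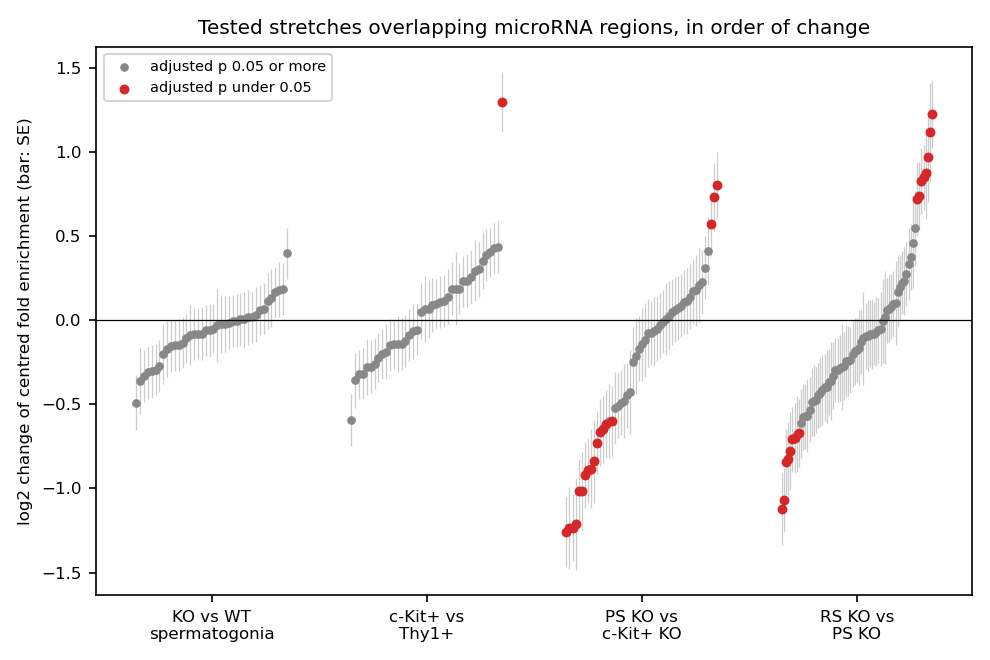
Change of centred log2 fold enrichment (vertical axis, bars are SE) of each tested stretch that overlaps a microRNA region, ordered by size within 4 comparisons; red marks an adjusted p under 0.05. No stretch is red for genotype, 1 for c-Kit+ against Thy1+, and both directions appear in the 2 comparisons with adult cells.

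Other fixed lists had few regions. No gene of the miR-17 to miR-92 clusters (0 of 16), the pluripotency clusters miR-290 and miR-302 (0 of 14) or the X-linked germ cell cluster (0 of 24) had a region under this rule, which leaves out peaks listed under several genes. Of 13 microRNAs known from spermatogonial stem cells 5 had one, among them Mir146, stand-alone at −11172 bp, with 4.34 to 7.59 in 5 of 8 spermatogonial libraries, 9.15 and 10.1 in PS and 9.39 and 8.66 in RS. Mir21, within Vmp1 and sharing its peak, had 6.82 to 18.2 in spermatogonia, 14.1 and 16.5 in PS and 9.78 and 10.3 in RS. Of 20 microRNAs of somatic tissues 7 had a region, and 6 of their 10 regions were seen in adult cells only, as were 51.8% of the microRNA regions and 62.3% of all regions. Mir196a-2 and Mir196b of the Hox clusters (2 of 6) had 3 regions with weak peaks of 3.54 to 6.08 in Thy1+ KO replicate 1, which held 34681 peaks, and 1 of the 3 also had one of 3.84 in replicate 2. No peak was called there in the other 10 libraries.

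Promoters of the genes that make microRNAs carried H3K27ac throughout. Of 19 such genes, 16 had a promoter peak in all 12 libraries, among them Dicer1 at 12.2 to 26.8, Dgcr8 at 8.68 to 25.9 and Ago2, the slicing Argonaute, at 10.3 to 40.0. Ago4 lacked a peak in 1 library, Lin28a, which blocks let-7 maturation, had one in 3, and Lin28b in none. Of the genes tested (16 in each spermatogonial comparison and 17 in each of the other 2), 1 passed: Drosha, lower in PS after centring (log2 change −0.77, SE 0.223, limma adjusted p = 0.0192), with 14.7 and 9.33 in c-Kit+ KO and 17.2 and 12.3 in PS as deposited. The mean as deposited was thus higher in PS, and the call rests on the centring, with which 31.9% of all regions passed and 25.1% passed lower. Markers of the stages followed the labels in part. Acrv1, Prm1 and Tnp1, genes of spermatids, had promoter peaks in the 4 adult libraries and in no spermatogonial one; Sycp3 and Spo11, meiotic genes, were highest in adult cells at 18.9 to 29.3. The markers of spermatogonia did not set these cells apart from adult cells. Between Thy1+ and c-Kit+ cells the few peaks called leaned with the labels, but the 4 markers were not tested there and the Kit values overlapped. Thy1+ KO replicate 2 had a peak at none of them. Kit was called in 10 libraries. It had 8.55, 6.20, 8.99 and 4.66 in c-Kit+ cells, 5.43 and 6.58 in the Thy1+ libraries with a peak and 3.25 to 10.1 in adult cells. Gfra1 was called in 1, Thy1+ KO replicate 1, at 3.54, the lowest value of any peak in that library. The only spermatogonial peaks of Gfra1 and Stra8 lay in the library with the most peaks of its stage (34681 in Thy1+ and 36362 in c-Kit+ cells). The part of peak number in this lean was not tested. Zbtb16, of undifferentiated spermatogonia, was called in 8, highest in PS at 12.2 and 10.1. Its spermatogonial peaks were 5.24, 6.03 and 8.10 in Thy1+ and 5.67 in c-Kit+ cells. Stra8, of differentiating ones, was called in 3 (c-Kit+ KO replicate 1 at 3.78, PS replicate 1 at 7.63 and RS replicate 1 at 5.48). The sum of these 4 was 0 to 18.2 in Thy1+, 4.66 to 18.4 in c-Kit+, 20.3 to 27.8 in PS and 10.3 to 20.7 in RS cells.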

How the data were processed

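Testicular germ cells were profiled by ChIPmentation for H3K27ac (12 libraries) with 16 inputs; Bowtie and MACS2 and the build mm10 are named in the submitters' processing notes, without versions. Per the file headers, each deposited table held a peak's start, end and summit, the signal height (pileup), a fold enrichment, and −log10 p and −log10 q values, with the nearest transcript and a class of location, and replicates were not pooled. The fold enrichment deposited by the authors is a ratio to a background that is constant within a library, so no local or input control enters it. The −log10 q values deposited by the authors were used only for a stricter peak list (at least 5). The deposited signal height chose the highest summit of each peak. Depth is unknown, so no counting interval was given.

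Mitochondrial peaks were dropped and peaks overlapping by at least 1 bp were merged. A region's value in a library was the highest fold enrichment of any overlapping peak. Regions called in all libraries of a comparison were tested with limma 3.58.1 (R 4.3.3; lmFit, eBayes, Benjamini-Hochberg over all regions tested, adjusted p under 0.05) on log2 fold enrichment, with library medians subtracted; the spermatogonial fit held genotype and stage, the others stage. Regions missing a peak were described by presence. Promoter peaks of named genes were those within 1000 bp of a start listed under that gene alone. The fitting step was tested on simulated data before use.

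Named regions were those passing a test (at most 10 per comparison), the 8 highest of those called in all libraries, those of 1 side only (at most 6 per side), those of the fixed microRNA lists, and Mir202. The members and lists were chosen with earlier results of these data known. Replicate numbers in the titles were checked for pairing: correlations of deviations were 0.0481 to 0.159 in spermatogonia, 0.000391 for c-Kit+ to PS and 0.0412 for PS to RS, so they were not taken as pairs. The check was made after library medians were subtracted, so it cannot show a shift of a whole library. Replicate 1 held more peaks and had a higher background than replicate 2 in every H3K27ac group (34681 against 21286 peaks in Thy1+ KO). Whether the numbers mark a batch was not tested. Alternatives tried were other scaling, stricter peaks, stricter overlap, filling of missing peaks, removal of regions called in inputs, a replicate block, equal numbers of peaks, and leaving out each library; where that left 1 library in a group, it was assumed to vary like the others. Python 3.11.15, numpy 2.4.6 and pandas 2.3.3 were used.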

Additional observations from a re-analysis of the deposited data

Results flagged for a closer look

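The Mir466d region (2:5379206-5379432, 227 bp) was the only microRNA region that overlapped peaks of the inputs, which enter no comparison. It had a peak in all 16 inputs, the highest with a fold enrichment of 13.4, beside 7.57 to 14.7 in the H3K27ac libraries, so the ranges of inputs and H3K27ac libraries overlapped.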

How the results depend on the processing

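No change between genotypes passed under any of the 15 alternatives, and no microRNA region was in 1 genotype only except 1 without c-Kit+ WT replicate 1 and 1 without c-Kit+ KO replicate 2 (range 0 to 1). For c-Kit+ against Thy1+ the count of microRNA regions called was 2 with quantile normalization, 0 without centring, 0 with stricter peaks, 5 with missing peaks at their library's lowest value, 2 without regions called in inputs and 1 to 2 leaving out a library. Over all regions, 104 calls became 0 without centring, 18 with stricter peaks, 564 with missing peaks filled, 160 without input regions and 9 (without Thy1+ WT replicate 1) to 178 (without Thy1+ WT replicate 2) leaving out a library. Regions in 1 side only were 3, or 1 with stricter peaks and 3 to 5 leaving out a library.

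For PS against c-Kit+ KO, 20 microRNA calls became 1 with quantile normalization, 34 without centring and 0 (without c-Kit+ KO replicate 2) to 17 leaving out a library. All-region calls went from 3992 (854 higher) to 784 (386 higher) with quantile normalization, 8940 (8841 higher) without centring, 2013 with stricter peaks and 0 to 4564 leaving out a library. Regions in 1 side only went from 54 to 32 with equal numbers of strongest peaks and 63 to 84 leaving out a library. Without centring the log2 changes of Mir713 (0.0617), Mir199a-1 (0.0617), Mir193 at −307 bp (0.16), Mir26a-1 (0.18), Mir202 at −6431 bp (0.20) and Mir143hg (0.24) turned positive, since the subtracted difference between library medians is then left in.

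For RS against PS, 20 microRNA calls became 11 with stricter peaks, 59 with missing peaks filled and 0 (without PS KO replicate 2) to 11 leaving out a library. All-region calls went from 4309 (2648 higher) to 1982 with stricter peaks, 21304 with missing peaks filled and 0 to 3402 leaving out a library; quantile normalization gave 3729 (2152 higher) and no centring 5850 (2220 higher). Regions in 1 side only went from 39 to 18 with stricter peaks and 63 to 71 leaving out a library. The cause of the losses without PS KO replicate 2 and c-Kit+ KO replicate 2 was not tested.

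With a replicate block, the calls for c-Kit+ against Thy1+ were 206 over all regions and 2 at microRNA regions; the counts for genotype (0), PS against c-Kit+ KO (3705 and 20) and RS against PS (4456 and 20) stayed within 1.5 times. Among named regions the block ended 1 call, the near Mir30a region in RS against PS (adjusted p = 0.0545). The numbers did not pair the samples by the correlation check, which was made after centring and cannot show a shift of a whole library. Without the block, the c-Kit+ against Thy1+ calls over all regions were 104. Depth is unknown, so weak peaks seen in 1 library cannot be weighed by counts.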
